A study of Mus musculus with 12 samples.

Results

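The genes described here are 10 members of the Bcl2 family, which decides whether a cell keeps or loses the integrity of its mitochondria: the survival genes Bcl2l1, Bcl2 and Mcl1, the death-promoting genes Bcl2l11, Bbc3, Bmf, Bid and Bik, and the effector genes Bax and Bak1. They were read through every probe set that the array annotation assigned to 1 of these genes alone, which gave 32 of the 45101 probe sets on the array, for 9 of the 10 genes. No probe set was assigned to Bax, which is not analysed here. RNA was measured on 12 one-colour Affymetrix arrays, 3 for each of 4 groups of B cells sorted from mouse spleen by B220, a surface protein of B cells. The control genotype was Foxp1wt/flox and the other, called deleted below, was Foxp1flox/del, so all mice carried at least 1 floxed Foxp1 allele, and all were of a mixed 129/Sv-C57BL/6 background. Foxp1 encodes a forkhead transcription factor. Cells of each genotype were incubated for 4 h either without stimulus or with IgM, as the labels name the agent. The labels give neither the age of the mice nor the Cre that would recombine the floxed allele, and they do not say whether replicates came from separate mice, so the p-values below measure only the spread between these samples, which may be technical.

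Proteins of this family act at the outer mitochondrial membrane. Bcl-2, Bcl-xL (encoded by Bcl2l1) and Mcl-1 hold the effectors Bax and Bak in check, and the BH3-only proteins Bim (encoded by Bcl2l11), Puma (encoded by Bbc3), Bmf, Bid and Bik release them, after which cytochrome c leaves the mitochondria and caspases are activated. In B cells, Bcl-xL is known to be induced by antigen receptor and NF-kB signalling, and Bim is known to be needed for the death of B cells whose receptor is engaged without further help. Values are log2 values made by the authors with GCRMA, on which a difference of 1 is a doubling of signal, and they are RNA levels, not protein levels.

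Deleted IgM replicate 3 stood apart from the other arrays. Over the 19187 probe sets tested it correlated at 0.837 and 0.884 with its group mates, whereas arrays of 1 group otherwise correlated at 0.948 or more, and its mean level of bacterial poly-A control RNAs was 7.13, against 8.20 to 10.82 on the other 11 arrays. Many of the results that rest on this array, but not all, are given with and without it. Foxp1 had 8 probe sets, and 0 of them differed between genotypes in limma with or without IgM (smallest adjusted p = 1 without IgM and 0.662 with it; 0 at an unadjusted p under 0.05, and no other tool was run). Their position in the gene, inside or outside its deleted segment, is not known here, so they check no label. The B cell markers Cd79a, Cd79b, Ms4a1, Cd74, Cd22, Pax5 and Blk were all measured, and their summed signal was 16.26 to 16.35 (log2) in unstimulated control cells and 16.20 to 16.31 in unstimulated deleted cells, and with IgM 15.22 to 15.45 and 15.24 to 15.64. The summed signal of 9 neutrophil and granule markers moved with the genotype, at 8.67 to 11.51 in unstimulated control cells against 11.97 to 14.62 in unstimulated deleted cells, and at 8.15 to 10.70 against 10.82 to 13.85 with IgM, although 0 of the 9 passed the limma threshold. That of 7 macrophage and monocyte markers was 7.79 to 9.15 against 9.56 to 11.60 without IgM and 7.51 to 8.86 against 8.98 to 11.27 with it, with Fcgr1 at or under 4 on all arrays, 1 marker higher and 1 lower past the threshold without IgM and 2 higher with it. Of 5 tested immature B cell markers, 1 was higher in deleted cells without IgM and 2 with it. That of 3 erythroid markers was 6.00 to 6.71 against 6.94 to 9.73 without IgM and 5.88 to 6.11 against 6.62 to 8.39 with it. That of 4 NK cell markers was 6.84 to 10.23 against 8.55 to 10.63 without IgM, with 1 marker called higher. Of 7 T cell markers, Cd4, Cd8a, Thy1 and Trat1 were at or under 4 on all 12 arrays, whereas Cd3d ranged from 3.44 to 8.30, Cd3g up to 6.41 and Cd3e up to 4.48. In such bulk samples, fewer cells of a type and less RNA per cell cannot be told apart, and the part of these markers in the genotype differences below was not tested.

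Of the 32 probe sets, 24 had a log2 value above 4 on at least 3 arrays and were tested, and 20 of them were above 4 on all 12. The tested ones were 3 of 4 for Bcl2l1, 4 of 5 for Bcl2, 6 of 6 for Mcl1, 5 of 5 for Bcl2l11, 1 of 1 for Bbc3, 1 of 3 for Bmf, 1 of 2 for Bak1, 3 of 3 for Bid and 0 of 3 for Bik. The 8 others were at or near the array floor of 2.23: Bcl2l1 1426050_at and the Bik probe sets 1420363_at and 1449836_x_at lay at 2.23 on every array, and Bik 1420362_a_at reached 2.39. Bmf 1422995_at reached 2.47, Bmf 1458325_x_at 2.24 and Bak1 1425716_s_at 3.1. Bcl2 1422938_at ranged from 3.05 to 4.35 and exceeded 4 on 2 arrays. A probe set near the floor measures no change in its gene, so nothing can be said of Bik RNA from these arrays.

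In unstimulated cells, Bcl2l1 and Bcl2l11, a survival gene and a death gene that oppose each other, were both lower in deleted than in control cells. Of 24 tested member probe sets 4 passed the limma threshold (Benjamini-Hochberg adjusted p under 0.05 over all 19187 probe sets), all 4 lower in deleted cells, 2 of Bcl2l1 and 2 of Bcl2l11. Among all probe sets tested 2.03% passed. The median log2 difference of the member probe sets was -0.31, against -0.04 over all probe sets. Same-numbered samples deviated together, although the labels do not say what the replicate numbers stand for. With the replicate number as a block 8 member probe sets passed, 3 of Bcl2l1 and 5 of Bcl2l11, all lower, against 5.36% of all probe sets. Leaving out deleted IgM replicate 3, which enters this comparison only through the shared spread, gave 5, against 3.96% of all. With IgM, 0 of 24 passed without the block (5 had an unadjusted p under 0.05, smallest adjusted p = 0.224) against 1.19% of all, and 2 passed with it, both of Bcl2l1 and lower, against 4.8% of all. With deleted IgM replicate 3 left out, 0 passed (2 at an unadjusted p under 0.05), against 1.34% of all.

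The response to IgM involved more members. In control cells 8 of 24 probe sets passed, 3 higher and 5 lower with IgM, against 18.2% of all probe sets, and with the block 17 passed, 7 higher and 10 lower, against 33.4%. In deleted cells 13 passed, 10 higher and 3 lower, against 17% of all, and with the block 16 passed, 11 higher and 5 lower, against 34.4%. Without deleted IgM replicate 3 the counts were 13 in control cells, against 30.6% of all, and 17 in deleted cells, 10 higher and 7 lower, against 21.1%. The IgM comparisons of the 2 genotypes rest on separate arrays, whereas each shares its unstimulated or IgM arrays with a genotype comparison. They are still not independent, because same-numbered samples deviated together and all groups share 1 estimate of the spread per probe set. The median log2 differences of the member probe sets were 0.24 in control and -0.24 in deleted cells, against -0.01 and 0.02 over all probe sets. Some members rose and others fell in both genotypes, so this median lies between them. Its sign changed with Bbc3 (0.22 in control and -0.70 in deleted cells) and Bak1 (0.52 and -0.81), which did not pass. Without deleted IgM replicate 3 Bak1 differed by 0.29 in deleted cells, and the member median there was 0.014. The interaction asks whether the genotype difference after IgM departs from that in unstimulated cells. It passed for 0 of 24 member probe sets in limma (smallest adjusted p = 0.619, with 5 at an unadjusted p under 0.05) and for 0 with the block (13 unadjusted), against 0.099% and 0.198% of all probe sets. Leaving out deleted IgM replicate 3, it passed for 0 (5 unadjusted), against 0.162%. Its median was 0.58 over the member probe sets and 0.12 over all probe sets, and 0.46 and 0.05 without that array.

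Bcl2l1 encodes Bcl-xL, the survival protein that activated B cells induce. Its 3 tested probe sets were lower in unstimulated deleted cells and higher with IgM in both genotypes. The promoter window of the gene that holds an NF-kB consensus match is shown because Rel, an NF-kB subunit, varied over the same arrays, as given further below. Rela, another NF-kB subunit gene, passed in no comparison. It differed by -0.10 and 0.14 between genotypes without and with IgM. Its IgM differences were -0.08 in control and 0.16 in deleted cells. The sequence is from RefSeq (GRCm38.p6), chr2:152830718-152830967, minus strand, the 250 bases before 1 of the 3 annotated Bcl2l1 starts, 5′ to 3′, with the match in capitals.
Bcl2l1: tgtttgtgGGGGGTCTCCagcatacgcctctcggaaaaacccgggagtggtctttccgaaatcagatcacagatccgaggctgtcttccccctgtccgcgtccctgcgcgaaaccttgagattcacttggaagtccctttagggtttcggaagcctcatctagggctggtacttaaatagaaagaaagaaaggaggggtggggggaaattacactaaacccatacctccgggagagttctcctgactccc
The match begins 242 bases before the start. The NF-kB consensus is 10 bases long, was searched on both strands over 250 bases before to 50 after each start, and occurred in 3 of 16 windows of the members and in 8.46% of 32851 mouse windows. It describes the letters of this window, not a site.

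On probe set 1426191_a_at, unstimulated control replicates 1, 2 and 3 had log2 values of 5.97, 6.24 and 6.09, and unstimulated deleted replicates 3.71, 5.04 and 3.74. All 3 deleted arrays lay below all 3 control arrays, and 2 of them were under 4, close to the floor, where a difference is compressed. The control mean was 6.10 ± 0.14 and the deleted mean 4.16 ± 0.76 (SD, n = 3 each), and the log2 difference of -1.94 ± 0.33 (SE, 95% interval -2.68 to -1.20) passed in limma (adjusted p = 0.0118, and 0.00263 with the block). Probe set 1420887_a_at read 6.72, 6.49 and 6.26 in control and 4.97, 4.98 and 3.73 in deleted cells, again without overlap. That difference, -1.93 ± 0.37 (SE), also passed (limma adjusted p = 0.0225, or 0.00121 with the block). As folds these differences were 3.83 and 3.81, and each exceeded the SD of either group.

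Probe set 1420888_at has the highest signal of the gene and read 8.83, 8.41 and 8.25 in control and 7.93, 7.14 and 6.94 in deleted cells. The groups did not overlap, but the difference of -1.16 ± 0.41 (SE) did not pass without the block (limma adjusted p = 0.276) and did with it (adjusted p = 0.00436). The same-numbered pairs differed by -0.90, -1.26 and -1.32. Groups without overlap were found in 17.2% of all probe sets in this comparison, and in all 3 of Bcl2l1.

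The calls on Bcl2l1 depended on single arrays. That of 1420887_a_at was lost without control unstimulated replicate 1, 2 or 3 (adjusted p = 0.105, 0.0807 and 0.0599) or without deleted unstimulated replicate 3 (adjusted p = 0.0508). That of 1426191_a_at was lost without control unstimulated replicate 2 or 3 (adjusted p = 0.0569 and 0.0523) or without deleted unstimulated replicate 1 or 3 (adjusted p = 0.0593 and 0.0514). Across the alternatives tried the log2 difference stayed between -2.14 and -1.52 on the first and between -2.38 and -1.65 on the second.

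With IgM, Bcl2l1 reached higher levels in both genotypes. In control cells 1426191_a_at read 7.77, 7.82 and 7.37, a log2 difference from unstimulated cells of 1.55 ± 0.33 (SE, limma adjusted p = 0.00912), and in deleted cells 6.77, 6.75 and 6.33, a difference of 2.45 ± 0.33 (SE, adjusted p = 0.000949). Probe set 1420887_a_at rose by 1.38 ± 0.37 in control cells (adjusted p = 0.0255) and by 2.32 ± 0.37 in deleted cells (adjusted p = 0.00212). On 1420888_at the IgM arrays of control cells read 10.47, 9.45 and 9.38 and those of deleted cells 9.50, 8.58 and 8.25. The rise of 1.44 ± 0.41 in deleted cells passed (adjusted p = 0.0342) and the difference of 1.27 ± 0.41 in control cells did not pass without the block (limma adjusted p = 0.0536), but did with it (0.000557) and without deleted IgM replicate 3 (0.0323). In all 6 of these comparisons every IgM array lay above every unstimulated array of its genotype. Groups without overlap, in either direction, were found for 43.1% of all probe sets in control cells and for 32.5% in deleted cells. The call of 1420887_a_at in control cells was lost without control unstimulated replicate 1, 2 or 3 or control IgM replicate 1 or 2 (adjusted p up to 0.0976). The call of 1420888_at in deleted cells was lost without control unstimulated replicate 2, deleted unstimulated replicate 2 or 3, or deleted IgM replicate 1 or 2 (adjusted p up to 0.116).

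After IgM, the 3 probe sets still read lower in deleted than in control cells in each same-numbered pair. The log2 differences were -0.99 ± 0.41 on 1420888_at, -0.99 ± 0.37 on 1420887_a_at and -1.03 ± 0.33 on 1426191_a_at (SE, n = 3 per group). None passed without the block (limma adjusted p = 0.365, 0.317 and 0.224), and the first pair of probe sets passed with it (adjusted p = 0.0135 and 0.0426), the last not (adjusted p = 0.0567). Without deleted IgM replicate 3 the differences were -0.73, -0.86 and -0.89. The groups overlapped on 1420888_at only, and lack of overlap was found for 16.1% of all probe sets. The genotype difference was smaller with IgM than without on 1420887_a_at and 1426191_a_at, by 0.94 ± 0.52 and 0.91 ± 0.47 (SE), but the interaction did not pass (limma adjusted p = 0.968 for both, or 0.435 and 0.521 with the block).

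**Figure D1:**
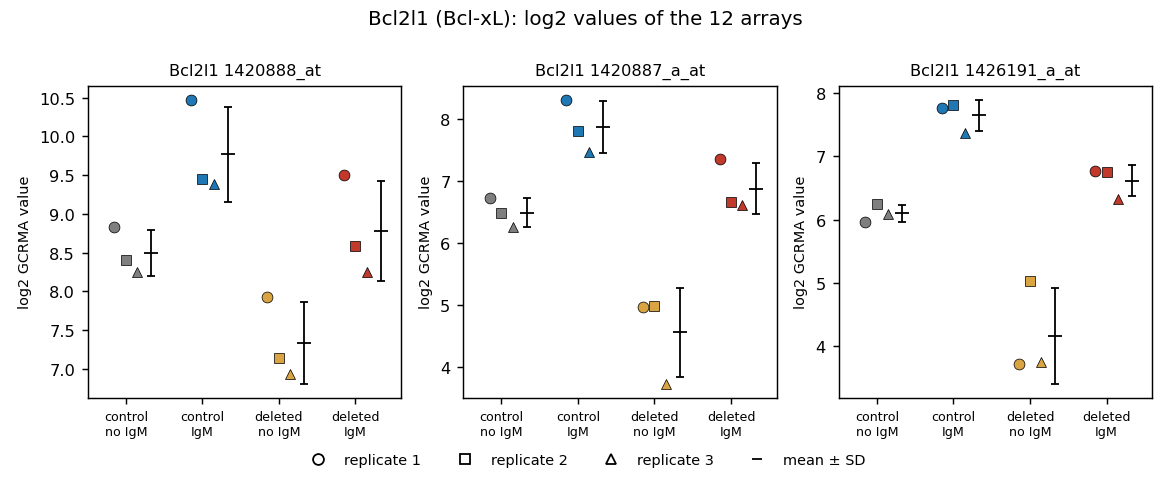
Log2 values (y axis) of the 3 tested Bcl2l1 probe sets on the 12 arrays, by genotype and stimulation (x axis), 1 symbol per replicate number, with the mean and SD of each group (n = 3). Unstimulated deleted cells are the lowest group in every panel, and both genotypes are higher with IgM.

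Bcl2, which encodes the survival protein Bcl-2, went the opposite way with IgM. Its probe set with the highest signal, 1457687_at, read 9.01, 9.46 and 9.38 in unstimulated control cells and 7.50, 7.67 and 7.49 after IgM, a fall of 1.73 (SE 0.21, limma adjusted p = 0.000455), which is 3.32-fold. In deleted cells it read 8.65, 9.15 and 8.90 without and 7.65, 8.05 and 7.83 with IgM, a log2 difference of -1.06 ± 0.21 (SE, adjusted p = 0.00697), and without deleted IgM replicate 3 of -1.05. In each genotype all IgM arrays lay below all unstimulated arrays. Groups without overlap, in either direction, were found for 43.1% of all probe sets in control and 32.5% in deleted cells.

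The other Bcl2 probe sets fell by similar amounts in control cells. Probe set 1437122_at fell by 1.79 (SE 0.28, adjusted p = 0.00154) and 1443837_x_at by 1.97 (SE 0.58, adjusted p = 0.0368), while 1440770_at had a difference of -2.08 ± 0.70 (SE, adjusted p = 0.0652, or 0.00134 with the block). All 4 tested Bcl2 probe sets showed no overlap in control cells, against 43.1% of all probe sets. In deleted cells 1437122_at fell by 0.96 (SE 0.28, adjusted p = 0.0361), and 1443837_x_at and 1440770_at had differences of -0.99 ± 0.58 and -0.64 ± 0.70 (SE, adjusted p = 0.275 and 0.576). The second of these passed in neither fit, whereas 1443837_x_at passed with the block (adjusted p = 0.00887).

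Some calls on Bcl2 rested on single arrays. That of 1443837_x_at in control cells was lost without control unstimulated replicate 1 or 3, control IgM replicate 2 or 3, or deleted unstimulated replicate 2 (adjusted p up to 0.140). That of 1437122_at in deleted cells was lost when any 1 of 9 arrays was left out (adjusted p up to 0.126), and it was kept without control unstimulated replicate 3, deleted unstimulated replicate 2 or deleted IgM replicate 3. Without the last of these its difference was -1.22.

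Between genotypes no Bcl2 probe set passed. Unstimulated, the 4 log2 differences lay between -1.26 and -0.18 (limma adjusted p = 0.706 to 1). With IgM they lay between 0.18 and 0.65 (adjusted p = 0.389 to 0.924). On 1457687_at deleted cells read lower in 3 of 3 same-numbered pairs without IgM (-0.36, -0.32 and -0.47) and higher in 3 of 3 with it (0.15, 0.38 and 0.34). The interaction of 0.67 ± 0.30 (SE) did not pass (adjusted p = 0.968, or 0.361 with the block).

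Mcl1, which encodes a short-lived survival protein, was read by 6 probe sets, all above 11 on every array. Unstimulated, the 6 differences between genotypes lay between -0.01 and 0.09, with a limma adjusted p of 1 for each, and the 95% interval of 1448503_at, the probe set with the highest signal, ran from -0.39 to 0.57. With IgM they lay between 0.16 and 0.33 (adjusted p = 0.608 to 0.763), and without deleted IgM replicate 3 between -0.05 and 0.19. In the third pair 1456381_x_at read 12.43 in the control and 13.21 in the deleted sample, whereas the first and second pairs differed by 0.02 and 0.10.

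With IgM, 1 of the 6 Mcl1 probe sets fell in control cells. Probe set 1416880_at read 12.75, 12.68 and 12.89 without and 11.80, 11.90 and 12.16 with IgM, a fall of 0.82 (SE 0.23, limma adjusted p = 0.0299), and it was the only 1 of 6 that passed without the block. With the block 5 of 6 passed (adjusted p = 0.0038 to 0.0413), against 33.4% of all probe sets, with 1448503_at, at -0.27 ± 0.22 (SE, adjusted p = 0.175), as the exception. Without deleted IgM replicate 3, 4 of 6 passed, against 30.6% of all. The call of 1416880_at was lost without any 1 of the control arrays (adjusted p = 0.0514 to 0.104). In deleted cells the 6 differences lay between -0.63 and -0.21 and none passed without the block (smallest adjusted p = 0.0848, 1416880_at, which passed with it, adjusted p = 0.0137). Without deleted IgM replicate 3, on which all 6 Mcl1 probe sets read highest in their group, they lay between -0.86 and -0.36. Of the 6, 4 then passed, against 21.1% of all probe sets.

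Bcl2l11 encodes Bim, a BH3-only protein that binds all survival members of the family. It was lower in unstimulated deleted cells, and with IgM no genotype difference passed. Forkhead factors of the Foxo class are known to act on this gene, and a promoter window with a forkhead core match is shown for that reason, from RefSeq (GRCm38.p6), chr2:128125788-128126037, plus strand, the 250 bases before 1 of 2 annotated starts, 5′ to 3′, with the match in capitals.
Bcl2l11: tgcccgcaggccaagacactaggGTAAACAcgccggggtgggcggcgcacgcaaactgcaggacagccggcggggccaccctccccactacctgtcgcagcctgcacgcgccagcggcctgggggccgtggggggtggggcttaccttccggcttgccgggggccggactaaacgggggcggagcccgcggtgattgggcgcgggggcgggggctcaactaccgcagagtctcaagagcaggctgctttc
The core searched was GTAAACA on both strands, over 250 bases before to 50 after each start, and it begins 227 bases before this start. It occurred in 2 of 16 member windows, of Bcl2l11 and Bbc3, and in 3.65% of 32851 mouse windows, and a match of these letters is no evidence of binding.

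Unstimulated, probe set 1435449_at read 9.49, 9.95 and 9.21 in control and 8.02, 8.71 and 7.53 in deleted cells. The control mean was 9.55 ± 0.37 and the deleted mean 8.09 ± 0.60 (SD, n = 3 each), with a log2 difference of -1.46 ± 0.30 (SE, 95% interval -2.12 to -0.81, limma adjusted p = 0.0312, or 0.00536 with the block), 2.76-fold. The deleted arrays all lay below the control arrays, and the difference of the means exceeded the SD of either group.

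Probe set 1435448_at has the highest signal of the gene and read 11.98, 12.06 and 11.61 in control and 11.16, 11.0005 and 10.72 in deleted cells. This difference of -0.92 ± 0.20 (SE) passed as well (limma adjusted p = 0.0442). The other 3 had differences of -0.92 ± 0.22 on 1456005_a_at, -1.21 ± 0.29 on 1456006_at and -1.06 ± 0.48 on 1426334_a_at (SE, adjusted p = 0.0648, 0.0696 and 0.503), and passed with the block (adjusted p = 0.0148, 0.00828 and 0.0275), the first also without deleted IgM replicate 3 (adjusted p = 0.0335). On 4 of 5 probe sets the groups did not overlap, against 17.2% of all probe sets. In all 5 each deleted sample read below its same-numbered control.

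These calls were narrow. That of 1435448_at was lost when any 1 of 11 arrays was left out (adjusted p up to 0.177), and it was kept without deleted IgM replicate 3 (adjusted p = 0.0188). That of 1435449_at was lost without any 1 of 9 arrays (adjusted p up to 0.131), and it was kept without deleted unstimulated replicate 2, deleted IgM replicate 1 or deleted IgM replicate 3 (adjusted p = 0.0249 without the last). Over all alternatives the log2 differences stayed between -1.06 and -0.80 and between -1.78 and -1.18.

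IgM raised Bcl2l11 in deleted cells. All 5 probe sets passed, with rises of 1.25 ± 0.20 on 1435448_at, 1.21 ± 0.22 on 1456005_a_at, 2.06 ± 0.30 on 1435449_at, 1.92 ± 0.29 on 1456006_at and 1.86 ± 0.48 on 1426334_a_at (SE, limma adjusted p = 0.00128 to 0.0217). On 1435449_at the IgM arrays read 9.999, 10.20 and 10.24, and on 1435448_at 12.32, 12.15 and 12.15. Every IgM array of deleted cells lay above every unstimulated one on all 5 probe sets. Of all probe sets in this comparison, 17% passed and 32.5% had groups without overlap, in either direction. Without deleted IgM replicate 3 the rises were 1.20 to 2.02 and all 5 passed, and only the call of 1426334_a_at was lost without another single array, namely deleted unstimulated replicate 1 or 3 or deleted IgM replicate 2 (adjusted p up to 0.0913).

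In control cells the IgM response of Bcl2l11 was small and did not pass. The 5 differences lay between 0.26 and 0.68 (limma adjusted p = 0.25 to 0.485), and 1 passed with the block, 0.68 on 1426334_a_at (adjusted p = 0.046). On 1435449_at control cells with IgM read 9.99, 10.19 and 9.97. After IgM the genotypes differed by -0.05 to 0.22 over the 5 probe sets (adjusted p = 0.754 to 0.972), and the 95% interval on 1435448_at was -0.50 to 0.39. On 4 of 5 probe sets the 3 unstimulated deleted arrays were the lowest of all 12, as the plot of Bcl2l11 values shows. The interaction ranged from 0.87 to 1.56 over the 5 probe sets, against a median of 0.12 over all probe sets. It did not pass (adjusted p = 0.619 to 0.968, or 0.127 to 0.287 with the block). These 5 probe sets read 1 gene on the same arrays and do not repeat each other independently.

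**Figure D2:**
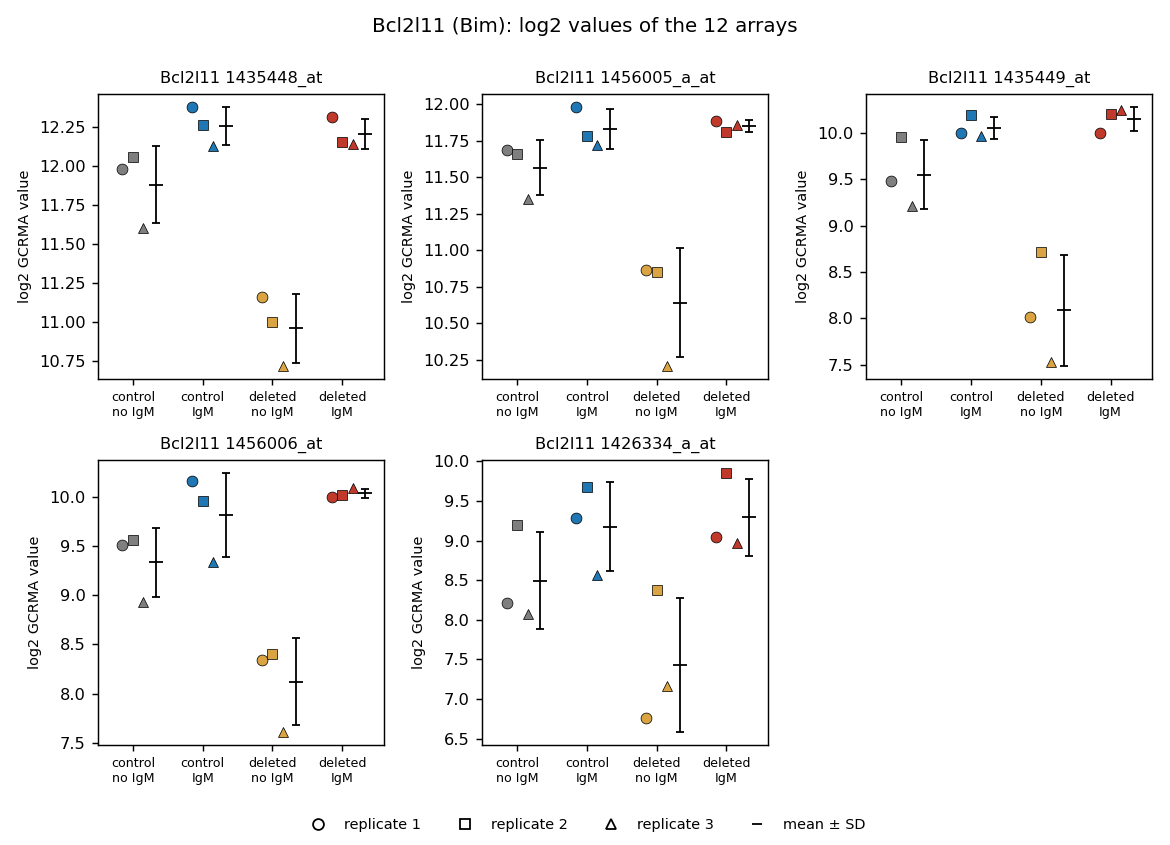
Log2 values (y axis) of the 5 Bcl2l11 probe sets on the 12 arrays, by genotype and stimulation (x axis), with group means and SD (n = 3). Unstimulated deleted cells lie apart from the other 3 groups on all panels but 1426334_a_at, where replicate 2 overlaps with unstimulated control cells.

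Bmf, whose BH3-only protein is tied to the cytoskeleton in healthy cells, fell with IgM. Its tested probe set 1454880_s_at read 10.03, 9.94 and 9.57 in unstimulated control cells and 8.65, 8.04 and 7.92 with IgM, a fall of 1.65 (SE 0.25, limma adjusted p = 0.0013), 3.13-fold. In deleted cells it read 9.88, 10.07 and 9.86 without and 8.75, 8.81 and 9.24 with IgM, a fall of 1.005 (SE 0.25, adjusted p = 0.0179), and without deleted IgM replicate 3 of 1.16. The groups did not overlap in either genotype, as for 43.1% of all probe sets in control and 32.5% in deleted cells. The call in deleted cells was lost without deleted unstimulated replicate 1 or 2 or deleted IgM replicate 2 (adjusted p = 0.053 to 0.0647). After IgM all 3 deleted arrays read above all 3 control arrays, by 0.73 ± 0.25 (SE), which did not pass (adjusted p = 0.248, or 0.112 with the block). Lack of overlap was found for 16.1% of all probe sets there. The same-numbered pairs differed by 0.10, 0.77 and 1.32, and without deleted IgM replicate 3 the difference was 0.58 (adjusted p = 0.384). Without IgM the genotype difference was 0.09 ± 0.25.

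Bid encodes a BH3-only protein that caspase-8 cleaves to link death receptors to mitochondria, and it was higher with IgM. Probe set 1417045_at read 9.98, 9.998 and 10.15 in unstimulated control cells and 10.69, 10.64 and 10.70 with IgM, a rise of 0.63 ± 0.17 (SE, limma adjusted p = 0.0245). In deleted cells it read 9.81, 9.63 and 9.84 and then 10.73, 10.55 and 10.69, a rise of 0.89 ± 0.17 (SE, adjusted p = 0.00512). Probe set 1448560_at rose by 1.19 ± 0.21 in deleted cells (adjusted p = 0.00398) and differed by 0.67 ± 0.21 in control cells (adjusted p = 0.0537, or 0.0207 with the block and 0.0137 without deleted IgM replicate 3). Neither genotype's groups overlapped on these probe sets. Such lack of overlap was found for 43.1% of all probe sets in control and 32.5% in deleted cells. The call of 1417045_at in control cells was lost without control unstimulated replicate 1 or 2 or control IgM replicate 1, 2 or 3 (adjusted p up to 0.0854). Probe set 1447873_x_at, above 4 on 8 arrays, had IgM differences of 0.84 ± 0.36 and 0.99 ± 0.36 that passed with the block only (adjusted p = 0.135 and 0.0848 without it, 0.00578 and 0.00279 with it). Between genotypes the 3 probe sets differed by -0.34 to -0.17 without IgM and by -0.03 to 0.18 with it, and none passed (adjusted p = 0.716 to 1).

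Bbc3 encodes Puma, a target of p53 and, in other settings, of Foxo3. Unstimulated, its probe set 1423315_at read 7.70, 7.44 and 7.44 in control and 8.40, 8.14 and 8.28 in deleted cells, without overlap. Such lack of overlap was found for 17.2% of all probe sets in this comparison. The difference of 0.74 ± 0.34 (SE) did not pass (limma adjusted p = 0.512, 0.184 with the block, 0.0515 without deleted IgM replicate 3). That array read 6.68, the lowest of the 12, against 7.97 and 8.05 for its group mates. With it the genotype difference after IgM was -0.18 ± 0.34 and without it 0.26 ± 0.20 (SE), and neither passed (adjusted p = 0.827 and 0.788). The IgM difference was 0.22 in control and -0.70 in deleted cells (adjusted p = 0.741 and 0.185), the latter -0.26 without that array. The forkhead core is found as its reverse complement in 1 of the promoter windows of Bbc3, shown because it is the only other member window with the core (RefSeq GRCm38.p6, chr7:16310011-16310260, plus strand, 5′ to 3′, match in capitals).
Bbc3: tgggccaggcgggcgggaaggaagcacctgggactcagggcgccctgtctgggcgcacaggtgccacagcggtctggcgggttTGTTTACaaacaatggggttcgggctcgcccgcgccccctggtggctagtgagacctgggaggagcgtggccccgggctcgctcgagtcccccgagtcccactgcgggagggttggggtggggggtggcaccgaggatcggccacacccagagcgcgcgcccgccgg
The match begins 167 bases before the start. Another Bbc3 window, and 1 of Bmf, held the NF-kB consensus.

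Bak1 encodes Bak, an effector that sits in the mitochondrial membrane. Its tested probe set 1418991_at read 7.08, 6.81 and 5.08 in unstimulated control cells, 7.39, 7.07 and 6.06 in control cells with IgM, 7.64, 7.23 and 6.34 in unstimulated deleted cells and 7.54, 7.18 and 4.06 in deleted cells with IgM. Replicate 3 was the lowest in each of the 4 groups, and all groups overlapped. None of the differences passed (limma adjusted p = 0.556 to 1). Standard errors of 0.85 left wide intervals, such as -1.14 to 2.63 for the genotype difference of 0.75 without IgM. With IgM that difference was -0.58, and 0.52 without deleted IgM replicate 3.

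**Figure D3:**
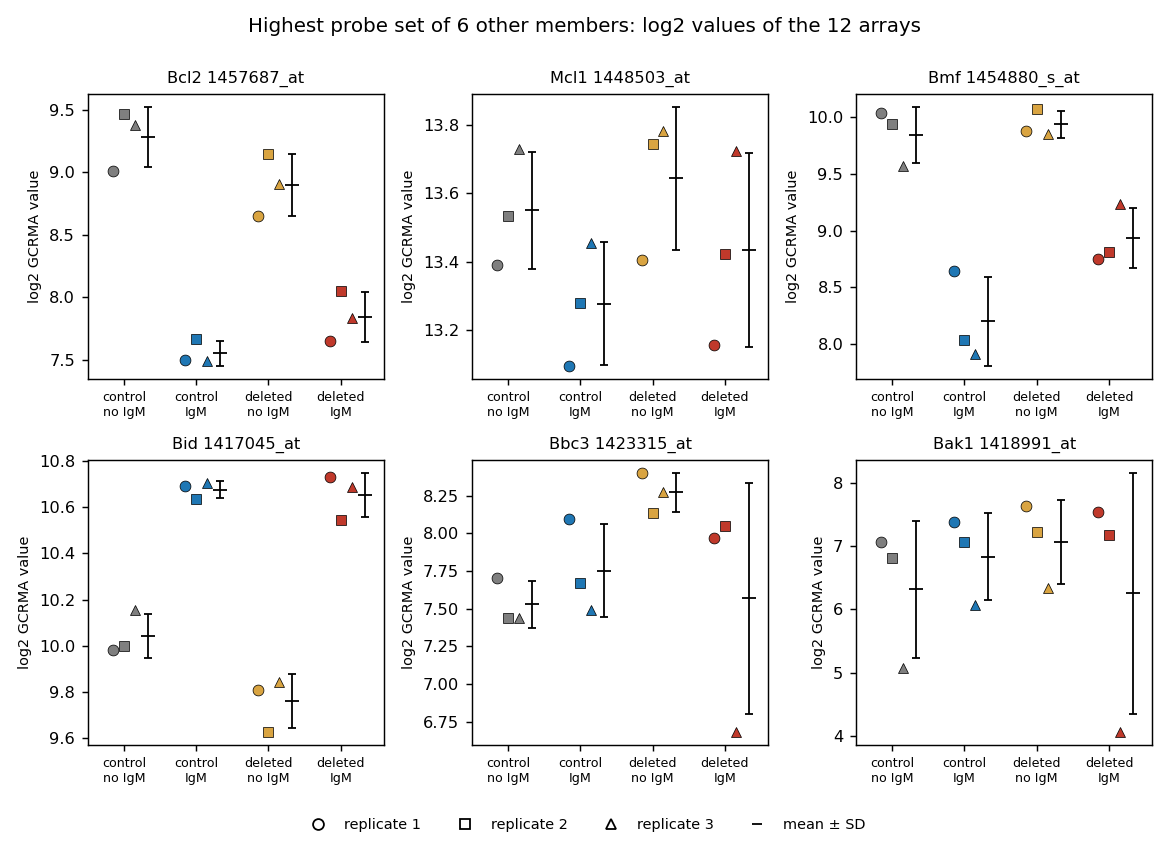
Log2 values (y axis) of the probe set with the highest signal of Bcl2, Mcl1, Bmf, Bid, Bbc3 and Bak1 on the 12 arrays, by genotype and stimulation (x axis), with group means and SD (n = 3). Bcl2 and Bmf are lower and Bid higher with IgM in both genotypes, and deleted IgM replicate 3 is the lowest array for Bbc3 and Bak1.

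Set side by side, the 2 genotype comparisons share no arrays. The plot of genotype differences shows that the intervals of Bcl2l1 and Bcl2l11 lay below 0 for all 8 probe sets without IgM. With IgM the intervals of the 3 Bcl2l1 probe sets stayed below 0, and those of the 5 Bcl2l11 probe sets held 0. Without deleted IgM replicate 3 those of Bcl2l1 1420888_at (-1.69 to 0.23) and 1420887_a_at (-1.78 to 0.06) held 0 as well. In that setting the interval of Bcl2l11 1426334_a_at without IgM (-2.15 to 0.03) also held 0. These are intervals for single probe sets, not adjusted for the number tested.

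**Figure D4:**
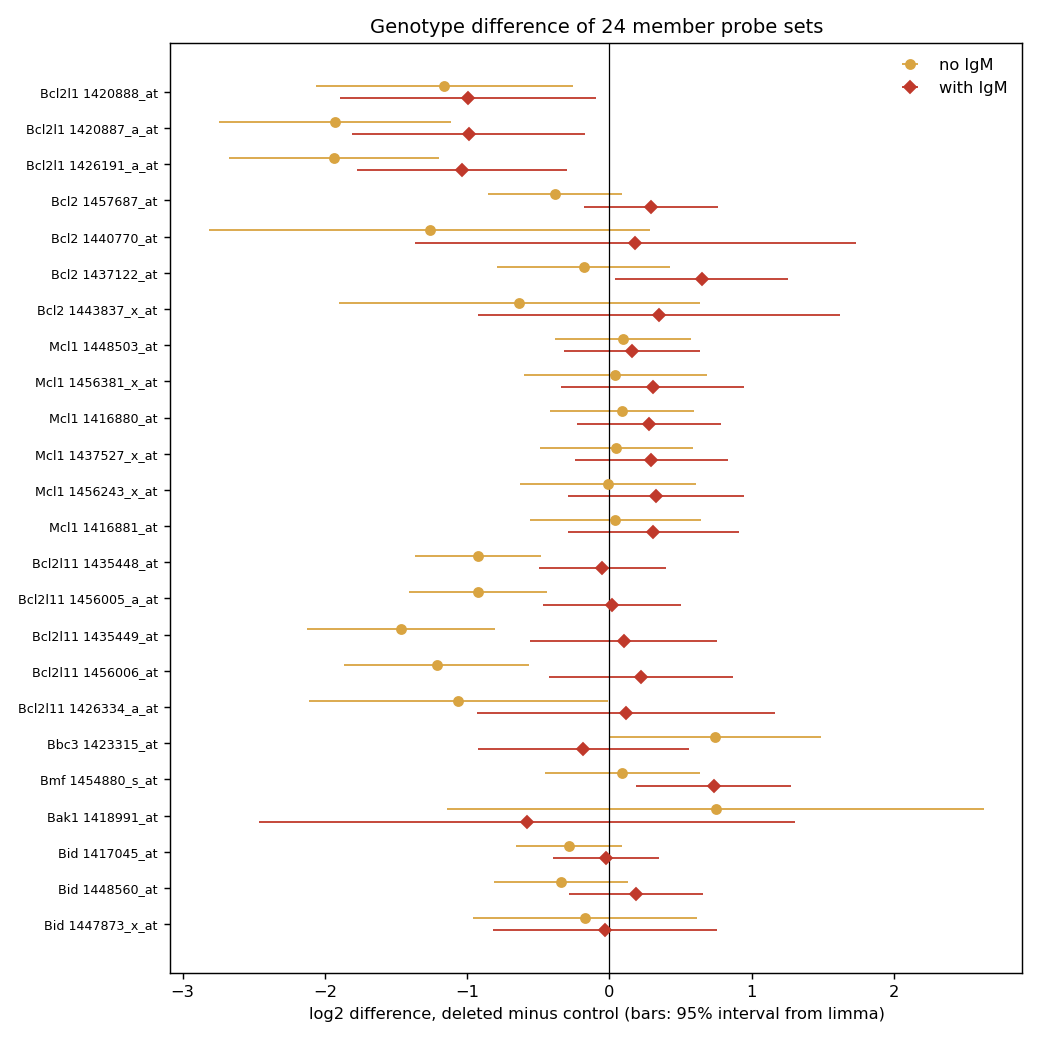
Log2 difference between deleted and control cells (x axis) of the 24 tested member probe sets (y axis), without IgM (circles) and with IgM (diamonds), with 95% intervals from limma. The circles of Bcl2l1 and Bcl2l11 lie at -0.92 or lower, and the diamonds of Bcl2l11 lie near 0.

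Across the IgM responses, probe sets of Bcl2l1 and Bid lay above 0 in both genotypes and those of Bcl2, Mcl1 and Bmf below 0 in both. Those of Bcl2l11 lay at 1.21 to 2.06 in deleted against 0.26 to 0.68 in control cells. The distance from the line of equal response is the interaction, which passed for no member. It was 0.87 to 1.56 for Bcl2l11, 1.44 for Bcl2 1440770_at and -1.33 for Bak1 (-0.23 without deleted IgM replicate 3).

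**Figure D5:**
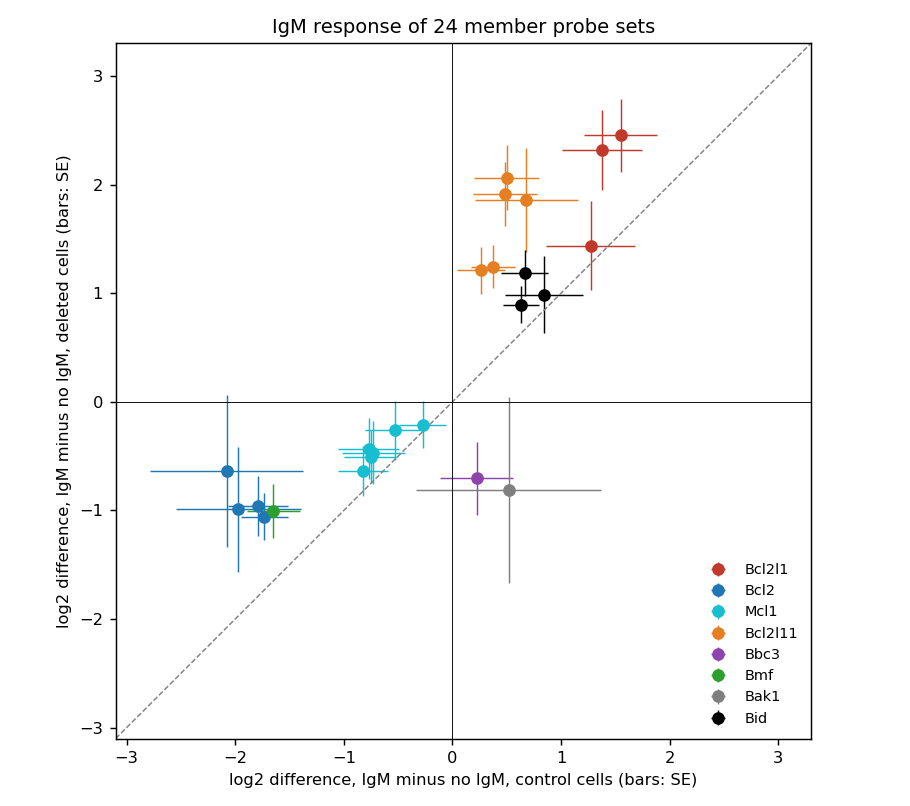
Log2 difference between IgM and unstimulated cells in control cells (x axis) and in deleted cells (y axis) for the 24 tested member probe sets, coloured by gene, with standard errors. The dashed line marks an equal response, and the Bcl2l11 points lie above it.

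Other genes of the death pathway were counted by their probe set with the highest signal, in 4 lists. Of all probe sets, 18.2% passed with IgM in control and 17% in deleted cells, and 33.4% and 34.4% with the block. Of 16 other Bcl2 family genes, 11 had a probe set assigned to them alone and 6 had 1 that passed the filter. Of these 6, 0 passed the threshold in any of the 5 comparisons without the block. With it, Pmaip1, which encodes the BH3-only protein Noxa, passed upward in both genotypes with IgM (0.78 and 1.13, limma adjusted p = 0.0277 and 0.005), Bnip3 passed downward in both (-0.97 and -1.31, adjusted p = 0.0159 and 0.00381) and Bad passed downward in deleted cells (-0.74, adjusted p = 0.0131). Without deleted IgM replicate 3, and without the block, these differences in deleted cells were 0.74, -0.78 and -0.43, and none passed (adjusted p = 0.186, 0.0977 and 0.545). In that setting Bnip3 passed in control cells (adjusted p = 0.0218).

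Of 14 genes of the apoptosome, caspases and their inhibitors, 12 were measured. The shares of all probe sets that passed with IgM were 18.2% in control and 17% in deleted cells. Without deleted IgM replicate 3 they were 30.6% and 21.1%. In control cells 4 fell with IgM and 0 rose: Casp9, the initiator caspase of the mitochondrial pathway, by 2.23 (SE 0.34), Casp8, that of the death receptors, by 1.55 (SE 0.21), Apaf1, the scaffold that activates caspase-9, by 1.21 (SE 0.28), and Casp2 by 1.14 (SE 0.25; limma adjusted p = 0.000832 to 0.0138 for the 4). In deleted cells 2 fell, Casp9 by 1.58 (SE 0.34) and Casp8 by 1.18 (SE 0.21; adjusted p = 0.00941 and 0.00396). There Apaf1 read 8.31, 8.28 and 7.96 without and 7.34, 7.41 and 8.30 with IgM. With the block Xiap and Birc3, genes of caspase and apoptosis inhibitors, also passed downward in control cells (-0.56 and -0.70, adjusted p = 0.0344 and 0.031). Leaving out deleted IgM replicate 3, 6 fell in control cells, the 4 above with Xiap and Birc2, and Cycs, which encodes cytochrome c, rose (0.84, adjusted p = 0.0119). In deleted cells Apaf1 then fell (-0.81, adjusted p = 0.024) and Cycs rose (0.88, adjusted p = 0.0216). With that array the log2 difference of Cycs was 0.0063 (limma adjusted p = 0.995). Casp8 read 11.20, 11.26 and 10.95 in unstimulated and 9.58, 9.92 and 9.28 in IgM-treated control cells. Between genotypes 0 of 12 passed without the block, and Birc5, which encodes the mitotic protein survivin, passed without IgM with it (2.01, adjusted p = 0.0299) and without deleted IgM replicate 3 (adjusted p = 0.016).

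Of 8 death receptor genes, 7 had a probe set assigned to them alone and 5 passed the filter. Cflar, which encodes the caspase-8 inhibitor c-FLIP, rose with IgM in control cells by 1.23 ± 0.37 (SE, limma adjusted p = 0.0397). In deleted cells its difference was 1.16 ± 0.37 (adjusted p = 0.0534, or 0.000859 with the block), and 0.87 without deleted IgM replicate 3, which did not pass (adjusted p = 0.127). No other gene of the list passed without the block. With it Fasl, which encodes the ligand of Fas, was higher in unstimulated deleted cells (0.93, adjusted p = 0.0406, against 0.228). Tradd, an adaptor gene, was lower with IgM in deleted cells with the block (-0.88, adjusted p = 0.0384, against 0.185). Without deleted IgM replicate 3, and without the block, the difference of Tradd was -0.34 and did not pass (adjusted p = 0.472).

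Of 12 transcription regulators of the family, 10 had a probe set assigned to them alone and 9 passed the filter. As for the caspases, 18.2% of all probe sets passed with IgM in control and 17% in deleted cells. These shares were 30.6% and 21.1% without deleted IgM replicate 3. In control cells with IgM Myc rose by 1.90, Stat5a by 1.35 and Rel by 1.28, and Foxo1 fell by 1.41 and Foxo3 by 1.11 (limma adjusted p = 0.000999 to 0.0145). In deleted cells Myc rose by 2.49, Rel by 2.24 and Stat5a by 1.21 (adjusted p = 0.000543 to 0.0228), and Foxo1 had a difference of -0.56 (adjusted p = 0.0842, or 0.034 with the block). With deleted IgM replicate 3 left out, Foxo1 (-0.69), Foxo3 (-0.78) and Stat5b (-0.73) fell and Ddit3 (1.23) rose in deleted cells as well (adjusted p = 0.0063 to 0.0218), and Ddit3 rose in control cells (1.15, adjusted p = 0.00336). Unstimulated, Rel read 9.97, 10.76 and 10.53 in control and 8.77, 9.61 and 9.12 in deleted cells, without overlap, as for 17.2% of all probe sets. Its difference of -1.26 ± 0.30 (SE) did not pass without the block (adjusted p = 0.0698), but did with it (0.00446) and without deleted IgM replicate 3 (0.0366). Myc had a difference of -0.93 ± 0.30 that passed with the block only (adjusted p = 0.217 and 0.0148).

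Genes whose values over the 12 arrays ran closest to those of a member were sought among 9008 named genes, by the root mean square difference between centred log2 values. For Bcl2l1 they were Smyd2, a methyltransferase gene (0.25), Rasd1 (0.31) and Gpr183, a receptor that positions B cells (0.36), where Bcl2l1 itself varied with a root mean square of 0.97. For Bcl2l11 they were Hccs (0.21), Strap (0.22) and the B cell kinase gene Blk (0.22), against 0.54 for Bcl2l11. For Bcl2 they were Dtx3l (0.17), the activin receptor gene Acvr1b (0.21) and the interferon regulator gene Irf2 (0.21), against 0.74. For Mcl1 they were Fxr1 (0.08), Tdp2 (0.10) and Fam126b (0.10), against 0.22, and with so small a range these matches carry little information. Between unstimulated genotypes Smyd2 differed by -0.78, Rasd1 by -1.77 and Gpr183 by -1.51, and Hccs differed by -0.45, Strap by -0.46 and Blk by -0.78. Because these genes were picked for their values on the same arrays, their differences are no separate result, and no p-value is given for them. The likeness is a description over arrays that share 4 groups.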

How the data were processed

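RNA of 12 samples was measured on Affymetrix arrays, and the deposited log2 values were made by the authors with GCRMA, per the submitters' processing notes. Its version and settings are not given in the sources used here. GCRMA corrects background, normalizes arrays by quantiles and summarises probes, and it compresses values near the floor of 2.23. Arrays carry no read depth, and their number limits the precision. Of 45101 probe sets the 64 controls were left out, and those above log2 4 on at least 3 arrays were kept (19187). Gene names came from GEO's platform annotation, with symbols updated through a GRCm38.p6 gene table, and 932 probe sets with several genes and 9160 with none were not named.

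Group means were fitted on all 12 arrays (limma 3.58.1 under R 4.3.3, with lmFit and eBayes), two-sided, with Benjamini-Hochberg adjustment over all 19187 probe sets and a threshold of 0.05. The fit was run on simulated data with added differences and with noise independent between arrays. This checked the code only, since the simulation held neither deviations shared by replicate number nor an array standing apart. Same-numbered samples deviated together from their group means (correlations of 0.242 to 0.838 over 12 pairs), so a second fit took the replicate number as a block, printed where it changes a call or moves a count by over 1.5 times. The labels give the numbers, not what they stand for. Named were all member probe sets, the 3 genes closest in pattern to Bcl2l1, Bcl2, Mcl1 and Bcl2l11, and up to 4 genes past the threshold per pathway list and comparison. Foxo3, the fifth past the threshold in its list, and genes of the lists that passed only with the block or without deleted IgM replicate 3, or that are named for their values in a genotype comparison, were chosen after their values were seen. The members, lists and markers were chosen with earlier results of these data known. Alternatives covered the filter, scaling, variance model, array weights, samples in the fit, the block and leaving out arrays.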

Additional observations from a re-analysis of the deposited data

How the results depend on the processing

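Each called log2 difference of a member kept its direction under every alternative run, and 446 such values still passed and 137 did not. With the replicate block, which treats the samples as paired, 1028, 921, 6412, 6603 and 38 probe sets passed (genotype without and with IgM, IgM in control and in deleted cells, interaction), against 389, 229, 3483, 3260 and 19 without it. Of the member probe sets 8, 2, 17, 16 and 0 passed, against 4, 0, 8, 13 and 0, and members are counted as probe sets below. Array weights gave 1225, 1012, 7069, 6140 and 108 probe sets and 7 and 1 members by genotype and 14 in IgM-treated control cells. With 1 probe set per gene, 1920 and 1765 passed for IgM and 10 for the interaction, and 1, 4 and 5 members without IgM by genotype and for IgM in control and deleted cells. No filter left 123 by genotype with IgM and 1 member without it, and a log2 cut of 6 left 10 for the interaction. Fits to only the compared arrays gave 0 probe sets by genotype with IgM, 905 for IgM in deleted cells, and 0, 14 and 5 members by genotype without IgM and for IgM in control and deleted cells. Leaving out arrays or a replicate number gave 38 to 760, 0 to 258, 423 to 5870, 259 to 4044 and 0 to 31 probe sets, and 0 to 5, 0 to 0, 1 to 13, 2 to 17 and 0 to 0 members, with the highest counts of probe sets without deleted IgM replicate 3. The cause was not tested. Differences that had not passed changed sign as follows, with the range over left-out arrays where these did it. By genotype with IgM, Bak1 ranged from -1.22 to 0.52, with 0.13 without replicate 3 and 0.27 with weights, Bbc3 from -0.46 to 0.26, with 0.13 and 0.29 in the same settings, Bid 1417045_at from -0.060 to 0.031 and Bcl2l11 1435448_at up to 0.0091. With IgM, Bak1 ranged from -0.11 to 0.90 in control cells, and in deleted cells from -1.45 to 0.29, with 0.045 with weights. The interaction of Bcl2l1 1420888_at ranged from -0.19 to 0.52, and that of Mcl1 1448503_at from -0.082 to 0.20, with -0.046 with weights. Bmf by genotype without IgM ranged from -0.049 to 0.21.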
